A study of Mus musculus with 5 samples.

Results

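Voltage-gated calcium channels and their alpha2delta subunits were described across the cell types of the mouse dorsal root ganglion (DRG). Members were 10 listed genes, matched by symbol to the 17271 rows of the deposited count matrix. A row was found for 9 of them, namely Cacna1a, Cacna1b, Cacna1c, Cacna1d, Cacna1e, Cacna1h, Cacna1i, Cacna2d1 and Cacna2d2, and Cacna1g was not analysed here. The study sequenced single cells of lumbar DRG from 5 untreated wild-type C57BL/6 mice aged 18 weeks, 3 males and 2 females, after enzymatic and mechanical dissociation and a density gradient. Libraries were made with the Chromium 3′ assay, which tags transcripts with unique molecular identifiers (UMIs) so that each is counted once. With a single condition, every comparison is between cell types. The annotation of the authors names 14 types: 3 neurofilament types (NF), 3 non-peptidergic types (NP), 5 peptidergic types (PEP), 1 type named for Th (tyrosine hydroxylase), satellite glia and endothelial cells.

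A voltage-gated calcium channel has a pore-forming alpha1 subunit, encoded by a Cacna1 gene, that opens when the membrane depolarizes and lets calcium into the cell. Cacna1a encodes Cav2.1 (P/Q-type) and Cacna1b Cav2.2 (N-type), the channels that trigger transmitter release at presynaptic terminals. Cacna1c and Cacna1d encode the L-type channels Cav1.2 and Cav1.3, Cacna1e the R-type channel Cav2.3, and Cacna1h and Cacna1i the low-voltage-activated T-type channels Cav3.2 and Cav3.3. Cacna2d1 and Cacna2d2 encode alpha2delta-1 and alpha2delta-2, extracellular auxiliary subunits that promote trafficking of the channels to the membrane and are the binding sites of gabapentin and pregabalin. In sensory ganglia Cav2.2 and alpha2delta-1 are known for their role in pain signalling, and Cav3.2 for its role in low-threshold touch neurons.

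The 5 libraries held 3352 cells, with 164 to 1370 cells and 13050375 to 88886919 UMIs per library, and 7 of 3345 distinct barcodes occurred in more than 1 library. Each library was taken as 1 mouse. Median depth was 30800.5 to 105150 UMIs per cell in the 12 neuron types, 17729 in satellite glia and 16889 in endothelial cells. Each of the 16 genes that appear in the type names had its highest mean level in the type named for it. The summed level of 5 neuron markers (Tubb3, Rbfox3, Snap25, Uchl1, Prph) was 8706 to 14090 CPM (UMIs of a gene per 1e6 UMIs of the summed cells) in the libraries of the neuron types, 274.8 to 788.4 CPM in satellite glia and 326 to 1053 CPM in endothelial cells. The authors defined the types from these same counts, so the p-values below measure how far types differ relative to the spread between libraries, and are not independent evidence that types differ. Levels are CPM of UMIs summed over the cells of a type in a library, given as the mean ± SD over 5 libraries. They are compared between types for a gene and not between genes, since 3′ counts of different genes were not put on a common scale.

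Every member with more than sparse counts was a neuronal transcript, and each had its own distribution over neuron types. Cacna1i was detected almost only in Th neurons and Cacna1h was highest in NF2_Ntrk2.Necab2. Cacna1a was highest in NF_Calb1. Cacna1b and Cacna2d1 were highest in PEP1 types, and Cacna1c and Cacna2d2 in NP_Nts. In satellite glia and endothelial cells together the members had 0 to 18 UMIs each.

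**Figure D1:**
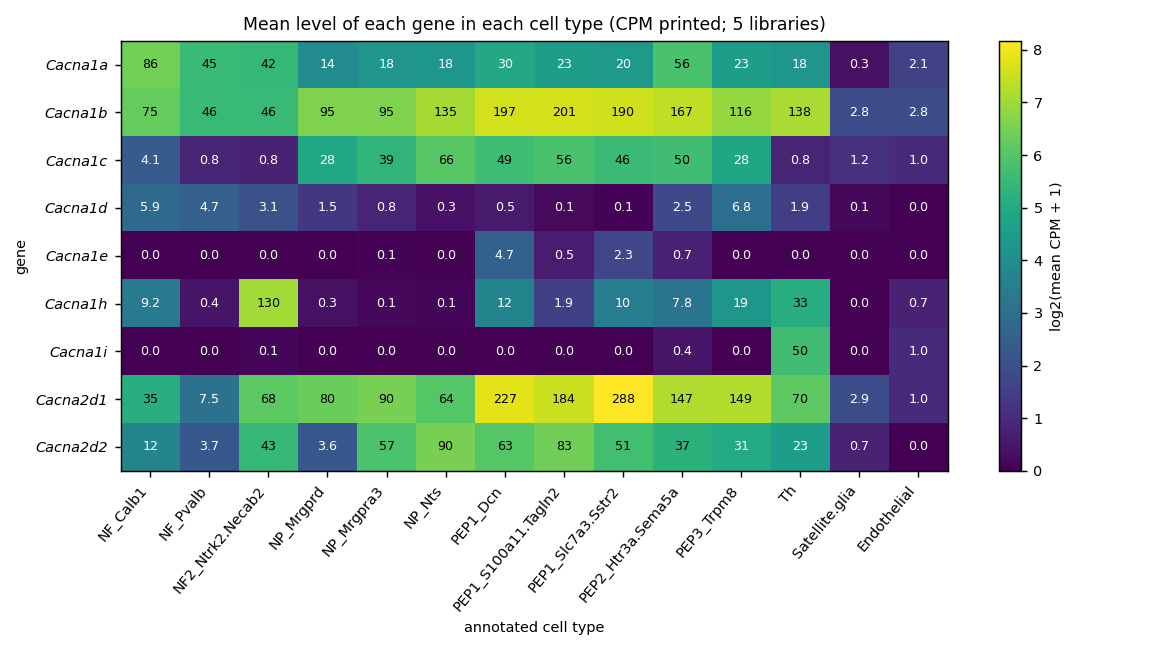
Mean level of 9 calcium channel genes (rows) in 14 cell types (columns) over 5 libraries, printed in CPM and coloured by log2(mean CPM + 1). Cacna1i stands at 50.4 CPM in Th and at 0.37 CPM or less in the other neuron types, and Cacna1c is below 1 CPM in NF2_Ntrk2.Necab2, NF_Pvalb and Th.

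Cacna1h, on chr17:25374285-25433783 (GRCm38, minus strand), encodes the T-type channel Cav3.2. In NF2_Ntrk2.Necab2, a neurofilament type named for the neurotrophin receptor gene Ntrk2 and the calcium-binding protein gene Necab2, its level was 125.4, 132, 152.7, 130.5 and 107.9 CPM in libraries 1 to 5, with a mean of 129.7 ± 16 CPM (SD, n = 5). In Th neurons it was 34.7, 38.8, 35.3, 33.9 and 24.6 CPM, and in PEP3_Trpm8 neurons, named for the cold channel gene Trpm8, 21.0, 19.1, 14.3, 21.0 and 19.8 CPM. These 3 groups did not overlap. The NF2_Ntrk2.Necab2 values came from 3, 6, 5, 17 and 27 cells in libraries 1 to 5. The within-library difference was 1.93 ± 0.154 on the log2(CPM + 1) scale between NF2_Ntrk2.Necab2 and Th and 0.78 ± 0.357 between Th and PEP3_Trpm8, in the same direction in 5 of 5 libraries. An exact two-sided sign-flip test over 5 libraries cannot go below p = 0.0625, which is the value it gave for both. All 58 cells of NF2_Ntrk2.Necab2 had at least 1 Cacna1h UMI, against 182 of 232 Th cells and 0 of 249 satellite glia, which allows a share of up to 1.21% of glia with a UMI and does not bound the share that expresses the gene. After each cell was thinned to 10000 UMIs, the shares were 69%, 28.4% and 0%, from median depths of 96530.5, 56281 and 17729 UMIs per cell.

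The lower end of Cacna1h was near 0. It had 28 UMIs in 900 NP_Mrgprd cells, 2 UMIs in 104 NP_Mrgpra3 cells, 2 UMIs in 400 NP_Nts cells and 2 UMIs in 113 NF_Pvalb cells, and its mean level was 0.366 CPM or less in each of these 4 types. Between these ends lay PEP1_Dcn (11.8 ± 9.61 CPM), PEP1_Slc7a3.Sstr2 (10.2 ± 2.98 CPM), NF_Calb1 (9.17 ± 3.98 CPM), PEP2_Htr3a.Sema5a (7.83 ± 2.24 CPM) and PEP1_S100a11.Tagln2 (1.91 ± 2.28 CPM). In PEP1_Dcn, the libraries ran from 0 CPM, in library 1 with 4 cells of this type, to 24.3 CPM, so the order of the first 4 of these types was not resolved beyond its spread. The step from PEP2_Htr3a.Sema5a to PEP1_S100a11.Tagln2 was 1.93 ± 1.15 on the log2(CPM + 1) scale, in the same direction in 5 of 5 libraries. Cacna1h thus differed within the NF class as well as between classes, from 0.366 CPM in NF_Pvalb to 129.7 CPM in NF2_Ntrk2.Necab2.

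In the edgeR fit each neuron type was compared with the mean log level of the other 11 neuron types. A gene was called when its Benjamini-Hochberg adjusted p was under 0.01, its change was at least 2-fold, and at least 25% of the cells of the higher side had a UMI. The log2 fold change of Cacna1h was 5.55 (SE 0.167, adjusted p = 6.1e-40) in NF2_Ntrk2.Necab2, 3.43 (SE 0.187, adjusted p = 7.0e-26) in Th and 2.52 (SE 0.27, adjusted p = 2.5e-12) in PEP3_Trpm8. It was -3.57 (SE 0.472, adjusted p = 8.7e-10) in NP_Mrgprd. In NF_Pvalb, NP_Mrgpra3 and NP_Nts the changes were -3.97, -4.16 and -5.21, but 22.2% to 24.7% of the other neurons had a UMI, under the minimum of 25%, so no call was made. The mean log level of the other types is pulled down by the types near 0. Cacna1h was therefore also called higher in NF_Calb1, PEP1_Dcn, PEP1_Slc7a3.Sstr2 and PEP2_Htr3a.Sema5a (log2 fold changes of 1.42, 2.01, 1.46 and 1.17), where its mean CPM was below the mean CPM of the other neuron types (19.3 to 19.7 CPM). Against the sum of all other cells of a library, the log2 fold changes in these 4 types were 0.05, 0.65, 0.15 and -0.19, and none was called. In NF2_Ntrk2.Necab2, Th and PEP3_Trpm8 they were 4.51, 2.33 and 1.19, and all were called. This reference weighs types by their UMIs and includes satellite glia and endothelial cells. NP_Mrgprd, with 28 Cacna1h UMIs, held 92245664 of the 224553219 UMIs of all cells. The mean CPM of Cacna1h in PEP3_Trpm8, at 19.03, was close to the 18.63 of the other neuron types and higher in 3 of 5 libraries. Without library 5, the change in PEP2_Htr3a.Sema5a was 0.90 and was not called.

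Cacna1i, the gene of the T-type channel Cav3.3 on chr15:80287238-80398279 (GRCm38, plus strand), was the most concentrated of the members. Of its 758 UMIs, 748 (98.7%) lay in the 232 Th cells. Its level in Th was 37.6, 62.2, 47.1, 62.6 and 42.4 CPM in libraries 1 to 5 (mean 50.4 ± 11.5 CPM, n = 5). The other 11 neuron types held 9 UMIs among 205127308 UMIs in all, 7 of them in 3 cells of PEP2_Htr3a.Sema5a, and 8 of these types held none. The lowest Th library, at 37.6 CPM, stood above the highest value in any other type, 4.97 CPM from a single UMI in endothelial cells. Pooled over libraries the level was 53.8 CPM in Th and 0.0439 CPM in the other neurons, a ratio of 1225. A UMI was found in 91.4% of Th cells, in 43.1% after thinning to 10000 UMIs, and in 0 of 249 satellite glia. The log2 fold change in Th was 9.71 (SE 0.251, adjusted p = 1.1e-27). The DESeq2 Wald test gave 8.74 with an adjusted p of 0.15, which did not pass, in a contrast whose other side has 8 types without a UMI. Against the sum of all other cells the change was 9.92 and was called.

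Markers of other cells were also measured in Th neurons. The summed level of 3 Schwann cell markers (Mbp, Prx, Pmp22), chosen after their values were seen, was 1474 to 2019 CPM in the libraries of Th. This did not overlap with the 53.7 to 819.7 CPM of the other neuron types, and in satellite glia it was 904.2 to 1276 CPM. Pmp22 made up most of it (1247 to 1806 CPM in Th, 40.8 to 813.8 CPM in the other neuron types), Mbp was 168.1 to 238.1 CPM in Th against at most 50.4 CPM in the other neuron types, and Prx had 7 UMIs in Th. The summed level of 5 satellite glia markers was 149.3 to 411.8 CPM in Th, within the 81.1 to 1464 CPM of the other neuron types. The 6 smooth muscle and pericyte markers summed to 114.4 to 252.9 CPM in Th and to at most 240.8 CPM in the other neuron types, and the 5 endothelial markers to 120.2 to 153.2 CPM and at most 154 CPM. Fibroblast and macrophage lists did not exceed 7.76 and 6.79 CPM in any neuron type. Satellite glia held no Cacna1i UMI, with a limit of 0.656 CPM. Schwann cells, smooth muscle cells and pericytes are not among the annotated types, and their part in the Th values was not tested.

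The bases just upstream of the Cacna1i start are shown because this member was the one most confined to 1 type, with each CG dinucleotide (CpG) in capitals. They were taken from the RefSeq promoter table of GRCm38.p6, chr15:80286988-80287237, plus strand, 5′ to 3′.
Cacna1i: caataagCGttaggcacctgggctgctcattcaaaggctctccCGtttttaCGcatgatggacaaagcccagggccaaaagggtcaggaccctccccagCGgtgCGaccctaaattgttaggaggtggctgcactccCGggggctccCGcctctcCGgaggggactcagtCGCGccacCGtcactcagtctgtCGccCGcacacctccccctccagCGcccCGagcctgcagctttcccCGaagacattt
This window of 250 bases holds 16 CpG and is 62.4% G or C. Among 32851 promoter windows of the same length, 74.6% hold fewer CpG, and the median window holds 6 and is 52.4% G or C. CG reads the same on both strands. The count describes these bases and says nothing on what controls the gene.

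**Figure D2:**
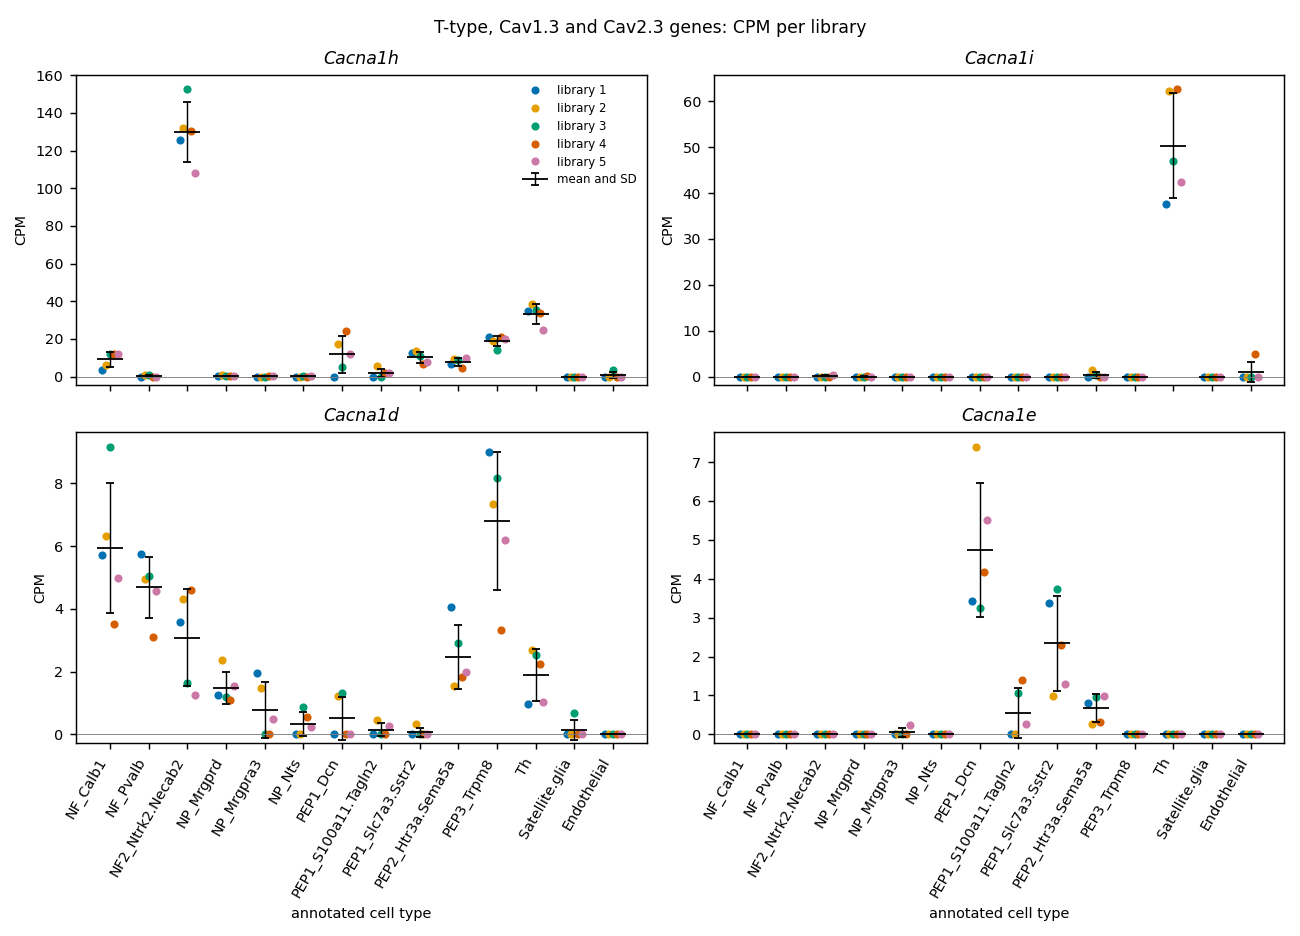
CPM of Cacna1h, Cacna1i, Cacna1d and Cacna1e (vertical axes, linear) in each annotated cell type (horizontal axis). Coloured points are the 5 libraries and black bars the mean and SD. Cacna1h in NF2_Ntrk2.Necab2 (107.9 to 152.7 CPM) and Cacna1i in Th (37.6 to 62.6 CPM) lie apart from all other types.

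Cacna1d encodes the L-type channel Cav1.3 and lies on chr14:30039939-30491455 (GRCm38, minus strand). It was sparse, with 404 UMIs in all. Its mean level was 6.80 ± 2.21 CPM in PEP3_Trpm8, 5.94 ± 2.08 CPM in NF_Calb1, 4.68 ± 0.976 CPM in NF_Pvalb and 3.08 ± 1.55 CPM in NF2_Ntrk2.Necab2, and the libraries of these types overlapped. It was 0.0651 CPM, 1 UMI in 342 cells, in PEP1_Slc7a3.Sstr2. None of the 13 steps in its order of levels exceeded the spread between libraries. Cacna1d was called higher in NF_Calb1 (log2 fold change 2.41, SE 0.257, adjusted p = 8e-13) and NF_Pvalb (1.99, SE 0.34, adjusted p = 7.1e-07). In PEP3_Trpm8 its change was 2.46 (adjusted p = 2e-08), but only 16.7% of the cells had a UMI and the call was not made. Without library 2 the gene fell below the filter on low counts and was not tested. The minimum share for a call was applied without thinning. Median depth was 30800.5 UMIs per cell in PEP3_Trpm8, 77900 in NF_Calb1 and 66720 in NF_Pvalb. At a depth of 10000 UMIs, 7.74% of PEP3_Trpm8, 7.22% of NF_Calb1 and 2.655% of NF_Pvalb cells had a UMI. In satellite glia the share was 0.402%.

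Cacna1e, the gene of Cav2.3 on chr1:154390731-154884501 (GRCm38, minus strand), had 89 UMIs and did not pass the filter on low counts, so it was not tested in the fit of the other members. Without the filter it was tested, but it could not be called in any contrast. No type had a Cacna1e UMI in more than 22.7% of its cells, under the minimum of 25%. Of its 89 UMIs, 47 lay in 37 of 163 PEP1_Dcn cells and 25 in 24 of 342 PEP1_Slc7a3.Sstr2 cells. Its level in PEP1_Dcn was 3.42, 7.39, 3.26, 4.17 and 5.50 CPM in libraries 1 to 5, and in PEP1_Slc7a3.Sstr2 it was 3.39, 0.976, 3.73, 2.3 and 1.3 CPM. These values overlapped. No UMI was found in 7 of the 12 neuron types or in satellite glia and endothelial cells. In NP_Mrgprd, the deepest of these, 0 UMIs allows a level of up to 0.0325 CPM. At these counts an absence from the other 6 types was bounded less tightly, at 0.141 to 0.553 CPM. At 10000 UMIs per cell, 4.91% of PEP1_Dcn cells and 0% of satellite glia had a UMI.

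Cacna1a, the gene of the presynaptic P/Q-type channel on chr8:84388440-84640246 (GRCm38, plus strand), was detected in every neuron type. In NF_Calb1 it was 86.0, 128.7, 96.7, 55.2 and 62.1 CPM in libraries 1 to 5 (mean 85.7 ± 29.4 CPM), and in PEP2_Htr3a.Sema5a, named for a serotonin receptor gene and a semaphorin gene, it was 55.8, 62.6, 53.7, 45.1 and 60.3 CPM (mean 55.5 ± 6.80 CPM). The groups overlapped, but NF_Calb1 was higher within each of the 5 libraries, by 0.561 ± 0.401 on the log2(CPM + 1) scale. NF_Pvalb (45.1 ± 14.8 CPM) and NF2_Ntrk2.Necab2 (42.2 ± 6.19 CPM) came next and did not differ beyond their spread. The remaining neuron types ranged from 29.6 CPM in PEP1_Dcn down to 14.3 ± 4.59 CPM in NP_Mrgprd. The gene was called higher in NF_Calb1 (log2 fold change 1.73, SE 0.144, adjusted p = 1.4e-17) and in PEP2_Htr3a.Sema5a (1.083, SE 0.154, adjusted p = 8.3e-09). The second call was lost without library 5, where the change was 0.91. In NP_Mrgprd its change of -0.86 was under 2-fold, but the gene was called lower there by DESeq2 and against the sum of all other cells.

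Cacna1b, the gene of the N-type channel on chr2:24603887-24763152 (GRCm38, minus strand), varied least between its highest and lowest neuron type, by 4.41 times, among the members with more than 3 UMIs in every neuron type. In PEP1_S100a11.Tagln2 it was 207.4, 219.9, 179.8, 186.4 and 212.5 CPM (mean 201.2 ± 17.3 CPM), and in PEP1_Dcn (196.8 ± 16.3 CPM) and PEP1_Slc7a3.Sstr2 (189.7 ± 11.4 CPM) it overlapped with this range. In NF2_Ntrk2.Necab2 it was 35.8, 54.1, 40.6, 48.8 and 48.9 CPM (mean 45.7 ± 7.32 CPM), and in NF_Pvalb 74.8, 41.5, 39.5, 42.4 and 31.7 CPM (mean 46.0 ± 16.7 CPM). Every library of the 3 PEP1 types, the lowest at 172.9 CPM, stood above every library of the 3 NF types, the highest at 89.1 CPM. The classes overlapped between these ends, with 116.2 CPM in PEP3_Trpm8 and 134.6 CPM in NP_Nts. The gene was called lower in NF2_Ntrk2.Necab2 (log2 fold change -1.35, SE 0.13, adjusted p = 1.5e-14) and NF_Pvalb (-1.55, SE 0.128, adjusted p = 1.1e-17). In the 3 PEP1 types its changes of 0.81 to 0.92 were under 2-fold.

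Cacna1c, the gene of the L-type channel Cav1.2 on chr6:118587240-119196418 (GRCm38, minus strand), split the neurons into a group with and a group nearly without its transcript. In NP_Nts, named for neurotensin, it was 42.4, 90.1, 72.4, 65.2 and 59.1 CPM in libraries 1 to 5 (mean 65.8 ± 17.5 CPM). The other NP and PEP types ranged from 27.6 ± 3 CPM in PEP3_Trpm8 to 55.6 ± 13.8 CPM in PEP1_S100a11.Tagln2. In NF_Calb1 it was 2.87, 3.66, 7.12, 1.17 and 5.61 CPM. In NF2_Ntrk2.Necab2, NF_Pvalb and Th it had 6, 7 and 14 UMIs and mean levels of 0.768, 0.797 and 0.796 CPM, below the 1.23 ± 1.70 CPM of satellite glia. The lowest library of any NP or PEP type, at 23.4 CPM, stood above the highest NF or Th library, at 7.12 CPM. The step from PEP3_Trpm8 to NF_Calb1 was 2.62 ± 0.638 on the log2(CPM + 1) scale in 5 of 5 libraries. Thinned to 10000 UMIs, 49.5% of NP_Nts cells, 0.862% of Th cells and 1.61% of satellite glia had a UMI, so the share in Th did not exceed the background.

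Cacna1c was called lower in NF_Calb1, NF_Pvalb, NF2_Ntrk2.Necab2 and Th, with log2 fold changes of -1.81 to -4.27. It was called higher in 7 types, with log2 fold changes of 1.23 to 2.45 led by NP_Nts (2.45, SE 0.131, adjusted p = 4e-27). The 4 low types set the mean log level of the other side here too. Against the sum of all other cells, 2 of the 7 were still called, NP_Nts at 1.3 and PEP1_S100a11.Tagln2 at 1.04. The changes in NP_Mrgpra3, NP_Mrgprd, PEP1_Dcn, PEP1_Slc7a3.Sstr2 and PEP2_Htr3a.Sema5a were then 0.50, 0.05, 0.83, 0.68 and 0.78 and were not called.

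**Figure D3:**
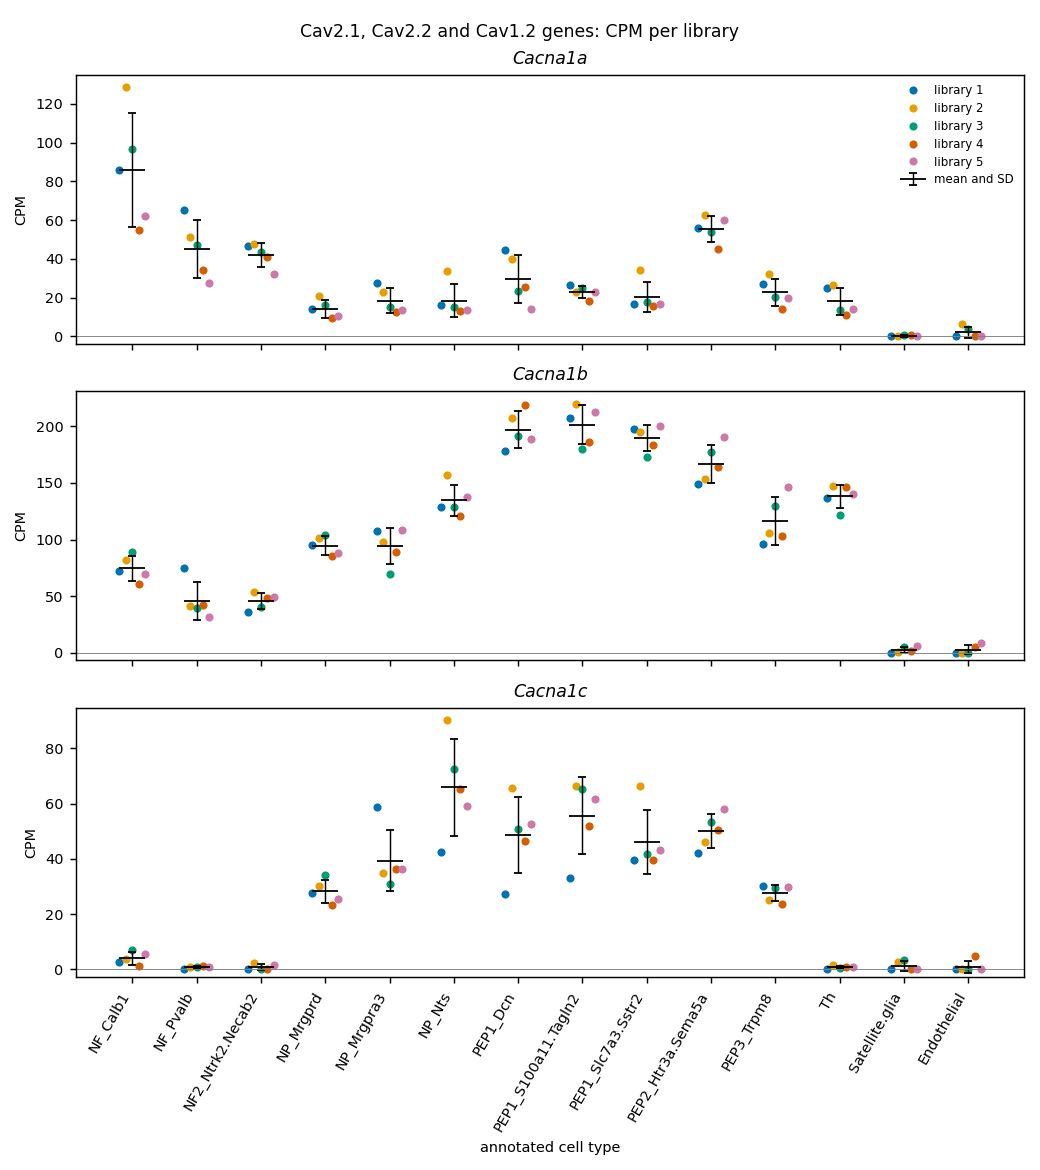
CPM of Cacna1a, Cacna1b and Cacna1c (vertical axes, linear) in each annotated cell type. Coloured points are the 5 libraries and black bars the mean and SD. Cacna1a peaks in NF_Calb1 (85.7 CPM), Cacna1b is highest in the PEP1 types (189.7 to 201.2 CPM), and Cacna1c is at 7.12 CPM or less in every library of the NF types and Th.

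Cacna2d1, the gene of alpha2delta-1 on chr5:15934691-16374511 (GRCm38, plus strand), was highest in the PEP1 types. In PEP1_Slc7a3.Sstr2, named for an amino acid transporter gene and a somatostatin receptor gene, it was 288, 321, 257.9, 271.1 and 300 CPM in libraries 1 to 5 (mean 287.6 ± 24.6 CPM). In PEP1_Dcn it was 126.7, 297.7, 274.3, 212.7 and 224.2 CPM (mean 227.1 ± 66.2 CPM), which overlaps with that range, and in PEP1_S100a11.Tagln2 it was 184.3 ± 23.4 CPM. At the lower end, NF_Pvalb, the type named for parvalbumin, had 3.84, 11.9, 6.72, 11.2 and 3.96 CPM (mean 7.52 ± 3.85 CPM). PEP1_Slc7a3.Sstr2 exceeded NF_Pvalb 38.3 times. The within-library steps from NP_Nts to NF_Calb1 (0.879 ± 0.364) and from NF_Calb1 to NF_Pvalb (2.15 ± 0.911, log2(CPM + 1) scale) were in 1 direction in 5 of 5 libraries. Cacna2d1 was called higher in the 3 PEP1 types (log2 fold changes of 1.90, 1.57 and 1.21 in PEP1_Slc7a3.Sstr2, PEP1_Dcn and PEP1_S100a11.Tagln2) and lower in NF_Calb1 (-1.49) and NF_Pvalb (-3.89, SE 0.28, adjusted p = 1.8e-20). In NF2_Ntrk2.Necab2, library 2 stood at 155.9 CPM and the other 4 libraries between 39.7 and 57.3 CPM, and no call was made there. With only sums of at least 10 cells, the gene was called lower in that type too. This kept only libraries 4 and 5 of the type, with 17 and 27 cells, and left out library 2, with 6.

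Cacna2d2, the gene of alpha2delta-2 on chr9:107399612-107529343 (GRCm38, plus strand), had a different order. In NP_Nts it was 76.0, 90.6, 93.5, 91.4 and 97.6 CPM (mean 89.9 ± 8.21 CPM), overlapping with 83.3 ± 13.2 CPM in PEP1_S100a11.Tagln2. In NP_Mrgprd, the largest neuron type, it was 4.57, 3.67, 4.01, 3.16 and 2.80 CPM (mean 3.64 ± 0.696 CPM), and in NF_Pvalb 3.74 ± 2.3 CPM. NP_Mrgpra3, an itch neuron type named for a Mas-related receptor gene, had 56.8 ± 7.51 CPM. The 3 NP types therefore did not overlap with each other for this gene, whereas for Cacna2d1 they ranged from 63.6 to 90.1 CPM and their libraries overlapped. Cacna2d2 was called higher in NP_Nts (log2 fold change 1.86, SE 0.106, adjusted p = 5.1e-25), PEP1_S100a11.Tagln2 (1.70), PEP1_Dcn (1.23) and NP_Mrgpra3 (1.2), and lower in NP_Mrgprd (-3.13, SE 0.157, adjusted p = 1.0e-27), NF_Pvalb (-3.55) and NF_Calb1 (-1.39). These calls held in each alternative fit that was run, including that against the sum of all other cells.

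**Figure D4:**
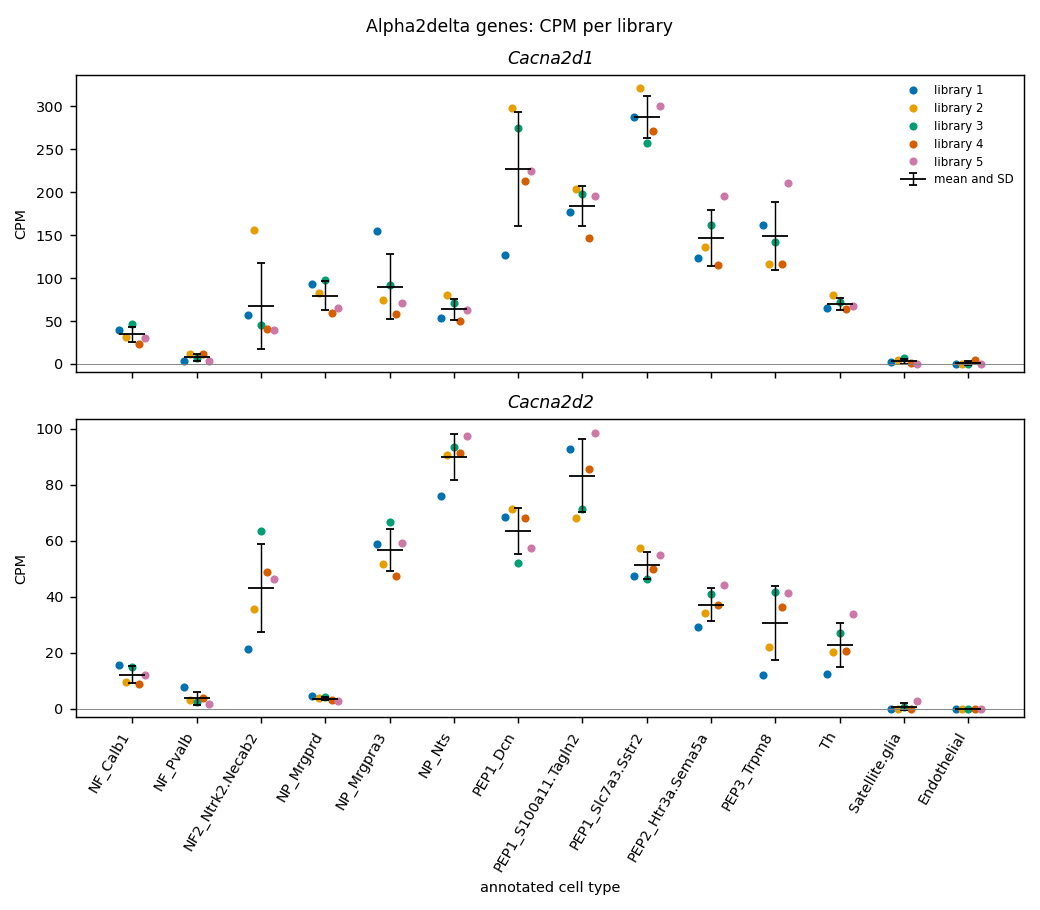
CPM of Cacna2d1 and Cacna2d2 (vertical axes, linear) in each annotated cell type. Coloured points are the 5 libraries and black bars the mean and SD. NP_Mrgprd has 59.6 to 97.9 CPM of Cacna2d1 but 2.80 to 4.57 CPM of Cacna2d2, and NF_Pvalb is low in both.

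Satellite glia and endothelial cells together held 0 to 18 UMIs of each member. In each of them 0 of 8 members tested were called higher than the mean log level of the 12 neuron types and the same 5 genes (Cacna1a, Cacna1b, Cacna1c, Cacna2d1 and Cacna2d2) were called lower. Cacna1d, Cacna1h and Cacna1i could not be called lower at any level. Only 11.52%, 21.5% and 7.12% of neurons had a UMI of them, under the minimum share for a call. Among their changes, only that of Cacna1h in satellite glia passed on fold and adjusted p (edgeR, -6.52, adjusted p = 0.00025). Of the 11886 genes tested, 17.4% were called higher and 23.6% lower in satellite glia, and 16.5% and 28.8% in endothelial cells. The median log2 fold change of the 8 members was -4.58 in satellite glia and -4.26 in endothelial cells, against -0.11 and -0.60 for all genes tested. Endothelial cells numbered 56, with 3 in library 1, and the calls of Cacna1a and Cacna1c there were lost without library 3, that of Cacna1c also without library 2.

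Counts of members were next set against all genes tested, by type. In NF_Calb1, 3 of 8 members were called higher (Cacna1a, Cacna1d, Cacna1h) and 3 lower (Cacna1c, Cacna2d1, Cacna2d2), where 13.8% of all genes were higher and 6.27% lower. In NF_Pvalb 1 was called higher (Cacna1d) and 4 lower (Cacna1b, Cacna1c, Cacna2d1, Cacna2d2), against 12.8% and 9.39% of all genes. In NF2_Ntrk2.Necab2 1 was called higher (Cacna1h) and 2 lower (Cacna1b, Cacna1c), against 9.62% and 6.6%. Among NP types, NP_Mrgpra3 and NP_Nts each had 2 called higher (Cacna1c, Cacna2d2) and 0 lower, against 6.64% and 5.44% of all genes in the former and 7.93% and 8.08% in the latter. The minimum share of cells kept Cacna1h from a lower call in both, and Cacna1d (-1.71) in NP_Nts. NP_Mrgprd had 1 called higher (Cacna1c) and 2 lower (Cacna1h, Cacna2d2), against 7.42% and 7.58%.

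No member was called lower in any PEP type, where 2.16% to 6.18% of all genes were. Cacna1d, Cacna1h and Cacna1i could not be, since at most 22.2% of other neurons had a UMI, under the minimum share. In edgeR, Cacna1d changed by -3.78 (adjusted p = 8e-06) in PEP1_Slc7a3.Sstr2 and -2.58 (adjusted p = 0.0027) in PEP1_S100a11.Tagln2. Its changes were -1.17 in PEP1_Dcn, 0.88 in PEP2_Htr3a.Sema5a and 2.46 in PEP3_Trpm8. The members called higher were 4 in PEP1_Dcn (7.74% of all genes higher, 2.16% lower), 3 in PEP1_S100a11.Tagln2 (6.01% and 2.35%), 3 in PEP1_Slc7a3.Sstr2 (7.03% and 4.36%), 3 in PEP2_Htr3a.Sema5a (9.77% and 2.18%) and 1 in PEP3_Trpm8 (6.81% and 6.18%). In Th, 2 were called higher (Cacna1h, Cacna1i) and 1 lower (Cacna1c), against 8.09% and 5.53%. Over the 14 type contrasts there were 26 calls higher and 22 lower. Without the minimum share of cells there were 29 higher and 29 lower. Of the 26, 9 were the calls of Cacna1c and Cacna1h that were not made against the sum of all other cells. The median log2 fold change of the members was lowest in NF_Pvalb (-2.55, all genes -0.02) and highest in PEP1_Dcn (1.05, all genes 0.03) among neuron types.

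The classes were compared as equally weighted means of their types. NF neurons are mostly large myelinated mechanoreceptors and proprioceptors, and NP and PEP neurons mostly small nociceptors and itch neurons. Between NF and NP, 3 of 8 members were called higher in NF (Cacna1a, Cacna1d, Cacna1h) and 4 lower (Cacna1b, Cacna1c, Cacna2d1, Cacna2d2), where 16.5% and 12.6% of all genes were. Between NF and PEP, 1 was called higher in NF (Cacna1d) and the same 4 lower, against 10.4% and 8.93%. Between NP and PEP, 0 were called higher in NP and 2 lower (Cacna1h, Cacna2d1), against 4.87% and 8.15%. These 3 comparisons share their groups and are not independent of each other.

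Cacna1c gave the largest class difference among the high-voltage-activated members. It averaged 1.88 ± 0.933 CPM over the NF types, 44.5 ± 4.55 CPM over the NP types and 45.6 ± 7.44 CPM over the PEP types, with log2 fold changes of -4.72 (SE 0.192, adjusted p = 1.9e-34) for NF against NP and -4.74 (SE 0.187, adjusted p = 7.3e-35) for NF against PEP. Cacna1b averaged 55.5 ± 4.91 CPM in NF, 108 ± 8.38 CPM in NP and 174.1 ± 8.40 CPM in PEP, and the library means of these classes did not overlap. Its log2 fold change for NF against NP was -1.12, and -0.94 by DESeq2, which was under 2-fold. Cacna2d1 averaged 36.6 ± 17.3, 77.8 ± 17.4 and 199 ± 23.8 CPM in NF, NP and PEP. Cacna2d2 averaged 19.7 ± 4.67 CPM in NF, and 50.1 ± 3.71 and 53.2 ± 4.05 CPM in NP and PEP. Cacna1a averaged 57.7 ± 15.2 CPM in NF, 17.0 ± 5.70 CPM in NP and 30.3 ± 5.87 CPM in PEP. Cacna1h averaged 46.4 ± 5.69 CPM in NF, nearly all from NF2_Ntrk2.Necab2, 0.180 ± 0.0637 CPM in NP and 10.2 ± 2.23 CPM in PEP. Its mean CPM was thus higher in NF than in PEP in 5 of 5 libraries, but the fold change on the mean log scale was -0.27 (adjusted p = 0.46), of opposite sign, since NF_Pvalb is near 0. Without library 2 the higher calls in class contrasts fell from 4 to 2, because Cacna1d was then not tested.

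**Figure D5:**
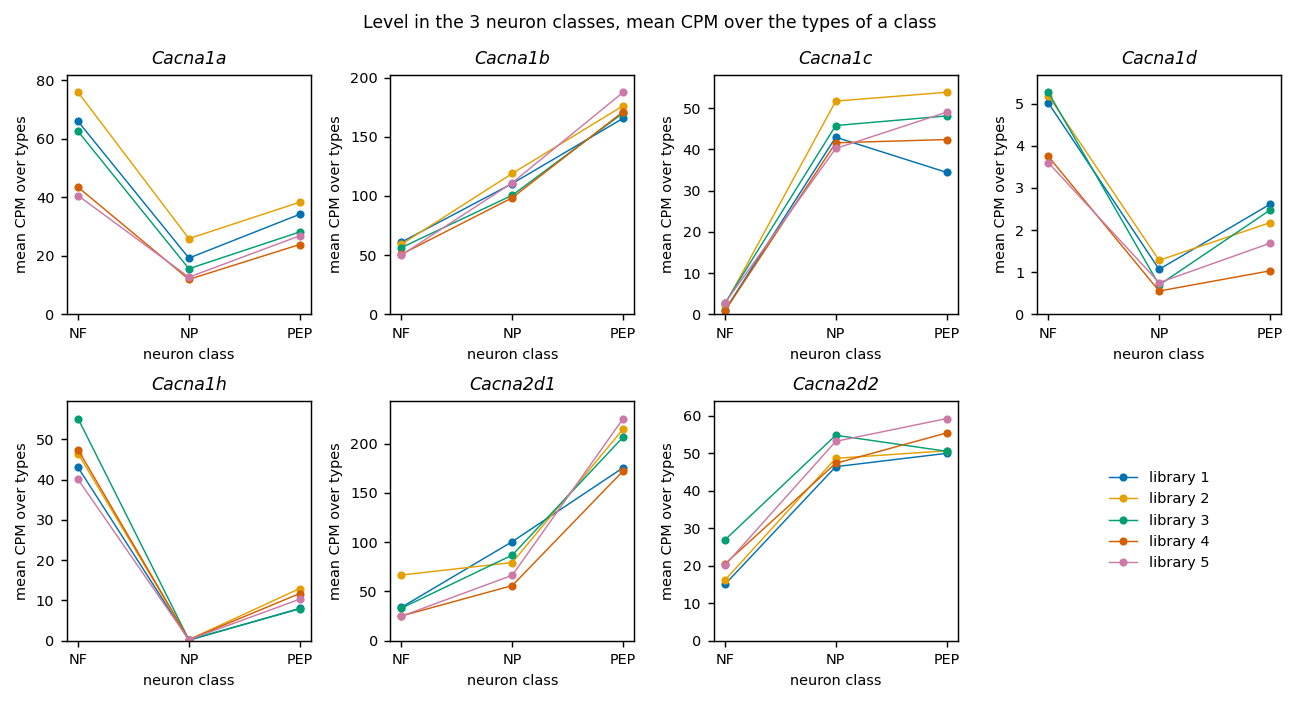
Level of 7 members in the NF, NP and PEP classes, as the mean CPM over the types of a class (vertical axes, linear), with 1 line per library. Cacna1b and Cacna2d1 are highest in PEP in all 5 libraries (165.6 to 187.6 CPM and 172.3 to 225.5 CPM), and Cacna1a, Cacna1d and Cacna1h are highest in NF in all 5.

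Members that moved together over types were described by the Pearson correlation of mean log2(CPM + 1) over the 12 neuron types, which share libraries and depth. The highest was 0.83 between Cacna1b and Cacna2d1, followed by 0.74 between Cacna1b and Cacna1c and 0.70 between Cacna1c and Cacna2d1. The lowest was -0.65 between Cacna1b and Cacna1d. Upstream bases of the pair with the highest value are shown for comparison with Cacna1i, with CpG in capitals, 5′ to 3′ on the strand of the gene, from RefSeq on GRCm38.p6 (chr2:24763153-24763402, minus strand, and chr5:15934441-15934690, plus strand).
Cacna1b: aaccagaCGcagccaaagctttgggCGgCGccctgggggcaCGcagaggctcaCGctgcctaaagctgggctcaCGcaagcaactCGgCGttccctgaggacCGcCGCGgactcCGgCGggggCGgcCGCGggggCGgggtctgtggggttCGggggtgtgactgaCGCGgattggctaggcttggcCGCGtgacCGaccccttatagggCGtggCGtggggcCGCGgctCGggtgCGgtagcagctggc
Cacna2d1: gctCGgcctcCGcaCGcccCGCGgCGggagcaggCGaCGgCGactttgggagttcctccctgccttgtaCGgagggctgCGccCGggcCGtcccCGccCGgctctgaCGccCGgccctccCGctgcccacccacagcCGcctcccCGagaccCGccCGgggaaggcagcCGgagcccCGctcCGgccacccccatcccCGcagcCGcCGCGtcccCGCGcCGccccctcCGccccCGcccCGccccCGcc
The windows hold 29 and 36 CpG and are 72% and 82.4% G or C. Of all 32851 windows, 93.2% and 97.4% hold fewer CpG. The table held windows for 7 members and none for Cacna1a and Cacna1h.

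Genes with the highest Pearson correlation to a member, in mean log2(CPM + 1) over the 12 neuron types, were named from 11500 genes as a description. For Cacna1a these were Maf (r = 0.98), Pip5k1c and Rasgrf2, all highest in NF_Calb1. Cacna1i was closest to Bmp15, Nccrp1 and Ceacam10 (r of 0.997 to 0.9995), which were highest in Th. These r values rest mainly on the level in Th, where 98.7% of Cacna1i UMIs lay. Cacna1h was closest to Tekt4, Ap4s1 and Pak7 (r of 0.88 to 0.90), and Cacna1d to Hspd1, Ntrk3 and Fam13a (r of 0.92 to 0.93). Cacna1b was closest to Fubp3, Ifi35 and 3010001F23Rik (r of 0.94 to 0.95) and Cacna1c to Sin3b, Cbr3 and Pkia (r of 0.95 to 0.97). Among the alpha2delta genes, Cacna2d1 was closest to Gstp1, Dclk3 and Igsf8 (r of 0.92 to 0.95), and Cacna2d2 to Itpk1, Hpcal1 and Bves (r of 0.89 to 0.93).

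Over all 9 members, 16 of 117 steps between neighbours in the order of levels exceeded 1 SD of the within-library differences with the same sign in 5 of 5 libraries. These were 4 steps for Cacna1a, 3 for Cacna1h, 2 each for Cacna1b, Cacna1c and Cacna2d1, 1 each for Cacna1e, Cacna1i and Cacna2d2, and 0 for Cacna1d. Steps of Cacna1e and Cacna1i between types that both lacked a UMI had a difference of 0 and could not exceed it. Neighbours in an order also have the closest levels by construction. The count therefore does not show how well types further apart were separated.

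Genes named for other subunits of these channels gave further differences between types. Whether their proteins are part of these channels in these cells was not tested. Of 16 listed genes (beta and gamma subunits, Cacna2d3, Cacna2d4, Cacna1f and Cacna1s), 12 were in the matrix and 7 were tested. Cacnb3, which encodes a cytoplasmic beta subunit, was broad, from 54.3 ± 14.8 CPM in NF_Pvalb to 355.8 ± 13.4 CPM in Th. Cacnb4, another beta subunit gene, reached 208.4 ± 22.7 CPM in NF_Calb1 and 160.4 ± 6.73 CPM in NP_Mrgprd, but 12.4 ± 11.7 CPM in NP_Mrgpra3 and 1.13 ± 0.963 CPM in NP_Nts. Its log2 fold change was -6.21 (SE 0.288, adjusted p = 1.3e-30) in NP_Nts and -2.88 in NP_Mrgpra3. NP_Nts is also the type with the highest Cacna1c and Cacna2d2.

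Cacna2d3, which encodes alpha2delta-3, was highest in NF_Calb1 (49.6 ± 10.4 CPM), followed by NF_Pvalb (33.1 ± 11.6 CPM), Th (27.6 ± 6.05 CPM) and NF2_Ntrk2.Necab2 (25.9 ± 4.97 CPM), and it was called higher in all 4. In PEP1_Slc7a3.Sstr2, where Cacna2d1 was highest, Cacna2d3 was 0.440 ± 0.429 CPM (log2 fold change -4.23, adjusted p = 3.1e-20). Between NF and PEP, its log2 fold change was 3.06 (adjusted p = 8.4e-34), in the opposite direction to Cacna2d1 (-2.93) and Cacna2d2 (-2.12). Cacng5, a gene named for a gamma subunit, was 37.2 ± 15.7 CPM in NF_Calb1, 49.8 ± 11 CPM in NF_Pvalb and 35.6 ± 9.94 CPM in PEP3_Trpm8. It was 8.48 ± 1.12 CPM in Th and 2.26 CPM or less elsewhere. Of the 7 tested, 4 were called higher in NF_Calb1 and 0 lower, and 3 were called higher and 2 lower in NF_Pvalb, beside 13.8% and 6.27%, and 12.8% and 9.39%, of all genes.

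Of 19 listed partners and regulators of the channels, 17 were tested. Rem2, a small GTPase that inhibits calcium channels, was 71.2 CPM in NF_Calb1, 56.7 CPM in NF2_Ntrk2.Necab2 and 39.7 CPM in NF_Pvalb, and 0.286 CPM in NP_Mrgprd, with a log2 fold change of 6.62 for NF against NP. The adaptor genes Stac and Stac2, whose proteins slow the inactivation of L-type channels, ran in opposite directions. Stac averaged 5.77 CPM over NF and 115.4 CPM over NP types (log2 fold change -4.16), whereas Stac2 averaged 79.0 and 0.753 CPM (6.58). For NF against NP, 5 of the 17 were called higher and 2 lower, against 16.5% and 12.6% of all genes.

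Of 12 listed calcium-activated potassium channels and presynaptic partners, 8 were tested. Kcnma1, which encodes the BK channel, was 81.1 CPM in PEP3_Trpm8 and 1.06 CPM in NP_Nts (log2 fold changes of 2.21 and -5.48). Kcnn1, an SK channel gene, was highest in NP_Nts at 51.5 CPM (log2 fold change 2.68). Rims2, whose protein ties calcium channels to the release site, was called higher in PEP1_S100a11.Tagln2 (189 CPM, 2.31), PEP1_Slc7a3.Sstr2 (132.4 CPM, 1.73) and NP_Nts (128.2 CPM, 1.69), and lower for NF against PEP (-1.76). For NF against NP, 3 of the 8 were called higher and 3 lower, against 16.5% and 12.6% of all genes.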

How the data were processed

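Single cells of lumbar DRG were measured with the Chromium 3′ assay. The authors deposited whole UMI counts per gene and cell, with their annotation of cell types, which was used unchanged. Per the labels and the study's methods, reads were aligned to mm10 with a UCSC gene model and counted with Cell Ranger, and cells were clustered with Seurat. The study filtered cells by gene number and mitochondrial share, yet 188 of the 3352 deposited cells were over 10% mitochondrial (highest 15.2%). Median depth was 57691.5 UMIs per cell. Doublets were not called here. The level of 1 marker gene is not reported here. Library numbers come from the cell names. No library could be matched to a sample label or a sex, a sequencing batch is not given, and each library was taken as 1 mouse, so p-values measure the spread between libraries.

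UMIs were summed per type and library (70 sums). The 4 rows naming no mouse gene (143 UMIs, 6.37e-05% of all) were left out. The sums entered edgeR (version 4.0.16; R 4.3.3; filterByExpr, TMM, quasi-likelihood test, 11886 genes, 14 type and 3 class contrasts, all libraries in 1 fit). A gene was called at a p below 0.01 after Benjamini-Hochberg adjustment, a change of 2-fold or more, and a UMI in at least 25% of cells of the higher side. Differences between neighbouring types used log2(CPM + 1), with a pseudocount of 1 CPM. For shares, cells were thinned to 10000 UMIs. A count of 0 was given a limit of 3 counts. Shares and limits cover counting error only. Python 3.11.15, numpy 2.4.6, scipy 1.17.1 and pandas 2.3.3 were used for the rest, and the fit was tested on simulated data.

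The members, the gene lists and the tests were chosen with earlier results of these data known. Named genes were all members in the matrix, the 3 genes most correlated with each over 12 neuron types (among genes reaching 5 CPM in 1 of them), and at most 3 called genes per list and contrast by fold. Levels of Cacnb3, Cacnb4, Cacna2d3 and Cacng5 in further types were added after their values were seen. Sums of 1 library were taken to come from the same animal, which was not tested. Their deviations correlated with a median of 0.192 within and -0.0383 between libraries over 3760 genes. Of 70 sums, 64 were closest to their own library. Alternatives were DESeq2 1.42.0, no filter on low counts, a replicate block, sums of at least 10 cells, removal of cells over 10% mitochondrial, the sum of all other cells as reference, no minimum share of cells, an adjusted p under 0.05, thinning, and leaving out each library. Sequences are from RefSeq, and gene positions from the GENCODE annotation of GRCm38.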

Additional observations from a re-analysis of the deposited data

Results flagged for a closer look

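In 64 combinations of a member and a type with 5 libraries, the gap of the highest or lowest library to its nearest neighbour was compared with the whole range. In 6 of them it exceeded the Dixon value of 0.71, where chance gives about 1 in 20. Cacna1a in library 2 stood apart in NP_Nts at 33.68 CPM and in PEP1_Slc7a3.Sstr2 at 34.15 CPM. Library 2 also had the highest Cacna1a level in each of the NF, NP and PEP class means (75.9, 25.8 and 38.3 CPM).

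Cacna1c in library 2 was 66.35 CPM in PEP1_Slc7a3.Sstr2, above 39.5 to 43.3 CPM in the other libraries. In library 1, with 4 NP_Mrgpra3 cells, it was 58.73 CPM in NP_Mrgpra3. Cacna1b in NF_Pvalb was 74.78 CPM in library 1, which had 6 cells of this type. Cacna2d1 in NF2_Ntrk2.Necab2 was 155.9 CPM in library 2, which also had 6 cells of this type. The part of small cell numbers in these values was not tested.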

How the results depend on the processing

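Of 664 fold changes recomputed for the 62 calls, 648 stayed called in the same direction, 15 kept the direction without the call and 1 reversed. Against the sum of all other cells of a library, higher calls in type contrasts fell from 26 to 17, and Cacna1h in PEP2_Htr3a.Sema5a reversed to -0.19. When 1 library was left out, higher calls in class contrasts ranged from 2 to 5 (4 with all libraries) and higher calls in type contrasts from 25 to 26. The lowest value, 2, came without library 2, where Cacna1d was not tested. The replicate block, which takes the library as a pairing, gave 26 higher and 22 lower calls in type contrasts and 4 and 10 in class contrasts, and changed no call. With DESeq2, 60 of the 62 calls were made, with Cacna1i in Th and Cacna1b for NF against NP lost. Calls gained were Cacna1a for NF against PEP (DESeq2, and without library 5), Cacna1a lower in NP_Mrgprd (DESeq2, and against the sum of all other cells), Cacna2d1 lower in NF2_Ntrk2.Necab2 (sums of at least 10 cells, and without cells over 10% mitochondrial), and in PEP3_Trpm8 Cacna1c (without those cells, library 2 or library 5) and Cacna2d1 (without those cells or library 2). Removing cells over 10% mitochondrial moved the mean of Cacna1h in NF2_Ntrk2.Necab2 from 129.7 to 110.3 CPM, and the cause was not tested. Depth limits Cacna1e, with 89 UMIs, and Cacna1d, with 404.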

Other observations

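Among the genes named for gamma subunits, Cacng3 was called higher in NP_Nts, PEP1_S100a11.Tagln2, PEP1_Dcn and PEP1_Slc7a3.Sstr2. Its log2 fold changes were 3.57, 3.41, 3.15 and 2.47, and it averaged 17.9 CPM in NP_Nts. In PEP3_Trpm8 it was not called, but its mean of 14.95 ± 9.16 CPM was above the 10.28 CPM of PEP1_Slc7a3.Sstr2. Cacng2 was called higher in NP_Mrgpra3 (2.73, 26.5 CPM), NF_Calb1 (2.1, 20.5 CPM) and NF_Pvalb (1.97, 19.4 CPM). It was also called higher in NF2_Ntrk2.Necab2 (1.49) and NP_Mrgprd (1.27). Higher calls of Cabp1, which encodes a calcium-binding regulator of these channels, included NF_Pvalb (2.92), NF_Calb1 (2.31) and PEP2_Htr3a.Sema5a (1.38). Among neuron types, Stx1a, a SNARE protein gene, was called lower in NF_Pvalb (-4.46), NF_Calb1 (-2.28) and NF2_Ntrk2.Necab2 (-1.84). Higher calls of Snap25, another SNARE protein gene, included NF_Pvalb (2.27) and NF_Calb1 (1.17).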
